A study of Mus musculus with 20 samples.

Results

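The regions described here are 3397 stretches of chromatin that were accessible in wild-type C2C12 cells on D0 and D1 and in which no peak was listed on D5, in control medium or under methionine restriction. Overlapping peaks (by 1 bp or more) of all 20 deposited ATAC-seq lists were joined into 101352 regions. Regions were chosen by these peak calls alone. A region belonged to the closed set when a peak overlapped it in all 6 early wild-type lists (D0, D1 control and D1 restricted) and in none of the 4 wild-type D5 lists. Of the 31947 regions called in all 6 early wild-type lists, these 3397 made up 10.6%. "Closed" is used for this loss of a peak call, since the lists hold no signal outside peaks. Another 15812 early regions were called in all 4 wild-type D5 lists and are referred to as kept. A further 6496 were called in both restricted D5 lists and in neither control D5 list, and are referred to as kept under restriction only.

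C2C12 is a mouse myoblast line that fuses into muscle fibres in culture. In ATAC-seq a transposase cuts accessible DNA and joins adapters to it, so that open sites give many fragments. Cells were wild type (WT) or carried a knockout of Setd2 (KO), the gene of the methyltransferase that trimethylates histone H3 at lysine 36, and were collected on D0 and, after D1 and D5 with methionine restriction (MR) or without it (CTL), as 10 groups in all. A WT group was a pair of replicates, and a KO group held 1 library from each of 2 knockout lines, so the spread within KO includes that between lines.

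When myoblasts leave the cell cycle and differentiate, enhancers that served the proliferating state are commonly decommissioned while those of the muscle programme gain or keep accessibility. AP-1 factors, which bind the site TGANTCA, and repressors of the muscle regulators, such as Id, Snail and Zeb proteins, are associated with the proliferating state. Methionine feeds the synthesis of S-adenosylmethionine, the methyl donor for Setd2 and other methyltransferases.

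The lists held 644 to 69881 peaks. The lists of KO line 1 at D5 held 644 peaks in CTL and 1881 in MR and were not used to describe the regions. The remaining 18 lists held 20847 to 69881 peaks. The WT D5 lists were shorter in CTL (22465 and 20847) than in MR (39538 and 39263), and each was shorter than every early WT list (43058 to 69881). The highest fold enrichment in a WT D5 list was 14.6 to 21.0, against 25.3 to 32.1 in the early WT lists. The background pileup recovered from each list was 5.17 to 5.88 in WT D5 and 3.17 to 5.38 in the early WT lists. The part that these differences between lists play in the loss of calls was not tested. A peak lay within 1 kb of an end of 6 and 7 of 8 myoblast marker genes in the 2 WT D0 lists, Myf5 being without one in every list, and at none of 4 endothelial markers. In the same lists 2 of 5 fibroblast, 2 of 5 adipocyte and 1 of 4 macrophage markers had one, with none at Pdgfra, Adipoq or Ptprc. Myog and Acta1 had no peak there in any D0 list and had one in all 8 WT lists of D1 and D5. In KO line 2 at D5, peaks lay at 1 of 6 differentiated muscle markers in each medium, against 5 or 6 of 6 in the WT D5 lists. One end of Setd2 carried a peak in all 18 longer lists, KO included, which does not check the knockout.

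Only a minority of closed regions lay at transcription starts, and the sequences of 4 exceptions are shown. In the 300-base promoter windows of RefSeq (GRCm38.p6, 250 bases before to 50 after a listed start), 217 closed regions overlapped 269 windows of 234 genes. Lrrc17, which encodes a secreted leucine-rich repeat protein, was among the 10 strongest closed regions. Gja1 (connexin 43), H4c2 (a replication-dependent histone H4 gene) and Tyms (thymidylate synthase) were picked after their values were seen, to show an AP-1 site and GC boxes at genes of proliferating cells. Each line gives the bases of the closed region that lie upstream of the listed start, 5′ to 3′ on the gene's strand, and capitals mark the motif found by the search.
Lrrc17, chr5:21543398-21543526, plus strand, E-box CAGCTG in capitals: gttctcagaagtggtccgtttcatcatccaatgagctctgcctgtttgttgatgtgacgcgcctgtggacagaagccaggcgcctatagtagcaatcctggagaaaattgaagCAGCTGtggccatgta
Gja1, chr10:56377172-56377299, plus strand, AP-1 site in capitals: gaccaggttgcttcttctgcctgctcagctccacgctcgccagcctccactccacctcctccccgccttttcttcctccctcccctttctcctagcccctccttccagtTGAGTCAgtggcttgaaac
H4c2, chr13:23756830-23756936, plus strand, GC boxes read on the other strand in capitals: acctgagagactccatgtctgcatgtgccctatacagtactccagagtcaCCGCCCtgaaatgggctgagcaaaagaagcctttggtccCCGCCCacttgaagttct
Tyms, chr5:30073626-30073700, minus strand, GC box in capitals: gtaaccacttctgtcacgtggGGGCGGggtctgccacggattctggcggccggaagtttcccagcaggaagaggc

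The 4 promoters differed in strength. Fold enrichment, the authors' ratio of signal to background at a peak, is given here for WT in the order D0, D1 CTL and D1 MR, 2 replicates each. At Gja1 it was 5.26 and 4.52, then 6.89 and 3.92, then 7.40 and 6.09. At H4c2 it was 4.81 and 4.74, then 5.97 and 6.16, then 6.79 and 6.17. At Tyms it was 4.02 and 3.98, then 6.04 and 5.56, then 5.39 and 5.72. The Gja1 replicates of D1 CTL lay on either side of both D0 values, so that no order between those groups can be read there. At H4c2 and Tyms both D1 folds exceeded the D0 folds in each medium. However, the median fold of closed regions was also higher in every D1 list than at D0. As percentiles among the early regions of a list, H4c2 had 51.2 and 41.1, then 43.5 and 64.7, then 48.2 and 44.9, with overlapping groups. Tyms had 30.7 and 22.5, then 44.7 and 55.2, then 25.7 and 37.2, so only D1 CTL lay above D0. KO line 1 had a peak at all 3 promoters on D0 and D1. KO line 2 had one at Gja1 and H4c2 only in D1 CTL, but at Tyms in all 3 early lists and again at D5 in CTL, with a fold of 3.60.

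Short motifs were searched on both strands of the 300-base windows, overlapping matches of different motifs being counted for each. The AP-1 site TGANTCA was in 7.81% of the 269 closed-region windows, in 7.81% of all 32851 windows and in 4.55% of the windows at kept regions. The GC box GGGCGG was in 61.3% of closed-region windows, 35.7% of all windows and 72.2% of windows at kept regions. The E-box CAGCTG was in 17.8%, 16.3% and 15.5% of these windows, the TEAD motif CATTCC in 10.0%, 14.7% and 10.4%, and the RUNX motif TGTGGT in 16.7%, 16.8% and 11.5%. The CTCF core AGGGGGC was in 18.2%, 10.6% and 17.8%. The median number of CpG dinucleotides was 18 in closed-region windows, 7 in all windows and 24 at kept regions. Closed-region windows were thus richer in CpG and GC boxes than the average promoter and poorer in both than windows of kept regions. These windows hold a small and start-proximal share of the closed set, and the sequence of the others was not analysed here.

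Most closed regions lay away from gene ends. Within 1 kb of either end of a protein-coding gene were 404 closed regions (11.9%), against 39.9% of kept regions, 16.6% of regions kept under restriction only and 15.8% of all merged regions. Inside a gene but farther from its ends lay 1698 (50%), within 50 kb of a gene 847 (24.9%) and farther out 448 (13.2%). Corresponding shares of kept regions were 35.8%, 17.8% and 6.60%. The median distance to a listed transcription start was 33397 bp for closed and 10625 bp for kept regions. In position the closed regions therefore resembled the average merged region more than they resembled the kept set. Whether a position inside a gene was exonic or intronic was not analysed here. The nearest region called in any WT D5 list was a median of 7622 bp away, and 260 closed regions (7.65%) had one within 500 bp.

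**Figure D1:**
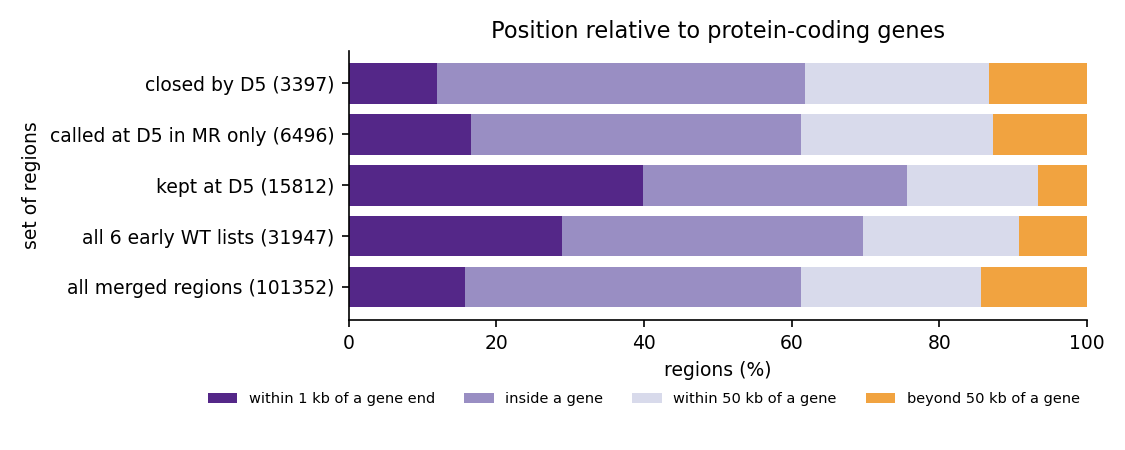
Share of regions (x axis, percent) in 4 classes of position relative to protein-coding genes, for 5 sets of regions (y axis, with the number of regions). Closed regions had 11.9% within 1 kb of a gene end, against 39.9% of kept regions.

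Closed regions were weak and short while they were open. Strength is the percentile of a region's fold enrichment among the 31947 early regions of the same list, averaged over the 6 early WT lists. Because calls in these lists chose the regions, strength is given as a description with no test. The median strength was 22.7 for closed regions, 35.3 for regions kept under restriction only and 68.5 for kept regions. Median lengths were 192, 288 and 485 bp in the same order. The median fold of closed regions was 3.82 and 3.90 in the 2 D0 lists, 5.04 and 4.04 in D1 CTL, and 4.90 and 4.52 in D1 MR, while that of kept regions was 5.85 and 6.49, 7.74 and 6.61, and 8.59 and 8.18. Closed regions lay below kept regions in every list by these medians.

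Early regions were divided by strength into 10 tiers of equal size, from tier 1 (weakest) to tier 10, and the share that closed fell from tier to tier. It was 32.7% in tier 1 (1045 regions), 24.0% in tier 2, 8.42% in tier 5 and 1.25% in tier 8. In tier 10, 1 of 3195 regions closed. At the border of the rule, the 2224 regions called in exactly 1 of the 4 WT D5 lists had a median strength of 26.2 and a median length of 221 bp. The single D5 list was one of the MR lists in 915 and 1116 of these cases and one of the CTL lists in 136 and 57. The 2792 regions missed by 1 early list and called in no D5 list had a median length of 173 bp. Values just outside the rule thus lay close to those just inside it. With lists of equal length, made of the 20000 strongest peaks of a library, 501 of 12395 early regions (4.04%) met the rule.

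**Figure D2:**
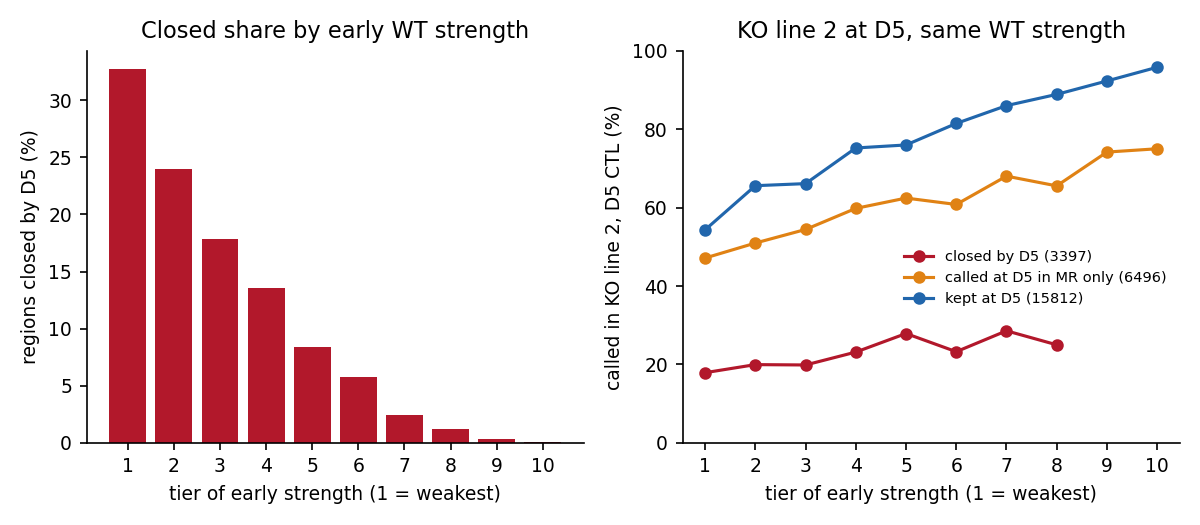
Left, percent of early WT regions closed by D5 (y axis) in each tier of early strength (x axis), falling from 32.7% in tier 1. Right, percent called in the D5 CTL list of KO line 2 (y axis) for closed regions, regions kept under restriction only and kept regions of the same tier, for tiers with at least 20 regions of the class; in tier 1, 17.9% of closed and 54.3% of kept regions were called.

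A few closed regions had been strong. The strongest lay inside Slamf9, a receptor gene of the SLAM family (chr1:172468417-172468728). Its fold was 8.05 and 8.50 at D0, 14 and 9.66 in D1 CTL, and 14.3 and 15.3 in D1 MR, with a mean percentile of 93.1. All 4 D1 values exceeded both D0 values, yet the rank in D1 CTL did not pass the test against D0 (adjusted p = 0.23 by limma). Next were a 129-bp region 29.7 kb from Ets2, which encodes an ETS transcription factor, with a mean percentile of 85.7, and a region inside Ldlrad3 (85.7). The region near Ets2 had a fold of 6.77 and 7.15 at D0, 15.3 and 10.4 in D1 CTL and 10.1 and 9.76 in D1 MR, so D1 CTL was highest in both replicates. The region at the start of Lrrc17 had 6.51 and 6.70, then 15.3 and 10.2, then 10.8 and 9.69. A region 13 kb from Socs1, the gene of an inhibitor of cytokine signalling, had 6.58 and 6.85, then 12.5 and 9.90, then 10.1 and 9.09. In all 3 regions the rank rose from D0 to D1 CTL (limma adjusted p = 0.012, 0.0084 and 0.025). The rank was lower in D1 MR than in D1 CTL (limma adjusted p = 0.014, 0.024 and 0.031). The D1 folds of the media overlapped at Lrrc17 and Socs1, while the within-list percentiles did not. These were 98.2 and 93.5 (CTL) against 84.5 and 81.8 (MR) at Lrrc17, and 94.5 and 92.6 against 80.7 and 77.9 near Socs1. The other 5 of the 10 strongest had mean percentiles of 78.8 to 85.1. They lay near Cnih1, inside Zc3h13 (a component of the RNA m6A writer complex) and near Ido2 (tryptophan catabolism). The last were inside Pdlim1 (an actin-associated LIM protein) and 94.8 kb from Adgrd1. Apart from those near Ets2, Lrrc17 and Socs1, none of the 10 passed either test. From D0 to D1 CTL the rank fell at Cnih1, Ldlrad3, Zc3h13 and Adgrd1 and rose at Slamf9, Ido2 and Pdlim1. It was higher in D1 MR than in D1 CTL at all of these but Ido2 and Pdlim1.

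Closed regions were spread over many genes. A region was assigned to each protein-coding gene it overlapped or, failing that, to the nearest one, and 2661 of 12917 genes with an early region had a closed one. Of these genes, 2065 had 1 closed region, 443 had 2 and 153 had 3 or more. The highest counts were at Fhod3, which encodes a formin that acts in sarcomere assembly (8 of 15 early regions closed), Agap1 (7 of 30), Grip1 (7 of 9), Asap1 (6 of 26) and Tspan9 (6 of 19). At Grip1, a gene for a PDZ scaffold protein, no early region was kept. The 8 closed regions of Fhod3 had strengths from 12.1 to 71.4, and none was called in KO line 2 at D5. Of the 7 at Grip1, 4 were called in KO line 2 at D5 in CTL and 2 in MR. All early regions closed at 4 genes that had 3 or more: Map3k13, Nebl (a nebulin relative), Pde3b and Rassf6. The densest run within 100 kb held 6 closed of 11 early regions inside Agap1 (chr1:89526051-89601224). Among the 7 runs of 5, one lay inside Arhgap22 (chr14:33235842-33316054, 5 of 9) and one beside Cxxc5 and Psd2 (chr18:35822086-35919958, 5 of 15).

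Early regions were also counted by gene list. Over all early regions 10.6% closed, with 32.7% in strength tier 1 and 1.25% in tier 8. The lists were not matched for strength, and its part in their shares was not tested. The lists were picked with earlier results of these data known, and the counts are a description. At 21 sarcomere and fusion genes, 0 of 41 early regions closed and 32 (78.0%) were kept. These included 5 kept of 7 at Des (desmin), 4 of 4 at Cdh15 (M-cadherin) and both at Mymk (the fusion protein myomaker). Other muscle genes outside that list did have closed regions, with 8 of 15 at Fhod3, 3 of 3 at Nebl and at least 1 inside Nrap. Among 14 repressors of myogenesis, 14 of 87 (16.1%) closed, namely 3 each at Snai1 and Zeb2, 2 each at Id1, Id2 and Zeb1, and 1 each at Hes1 and Twist2. Among AP-1 genes 7 of 42 (16.7%) closed, with 3 at Jun, 2 at Fosl1, and 1 each at Batf3 and Jund. Within both of these lists most early regions were nevertheless kept (55.2% and 61.9%).

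In the other lists the closed share was 5.63% to 13.9%. Of regions at myogenic regulators 6 of 61 (9.84%) closed, among them 2 at Eya2 and 1 each at Mef2c, Msc and Pax7. Growth factor receptors and ligands had 5 of 36 (13.9%), with 2 inside Igf1r, 2 at Met (the HGF receptor) and 1 at Pdgfrb. Cytokine and inflammatory genes had 10 of 76 (13.2%), with 4 near the chemokine gene Cxcl12 and 2 near Socs1. Matrix and adhesion genes had 20 of 168 (11.9%), with 4 each assigned to Col4a1 and Col4a2, a divergent pair of collagen IV genes that shared 1 of them. Cell cycle genes had 7 of 70 (10.0%), Hippo output genes 6 of 75 (8.0%), genes of the TGF-beta family 6 of 82 (7.32%) and Runx genes 4 of 71 (5.63%). In the growth factor list 10 of 36 early regions were kept and 11 were kept under restriction only.

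**Figure D3:**
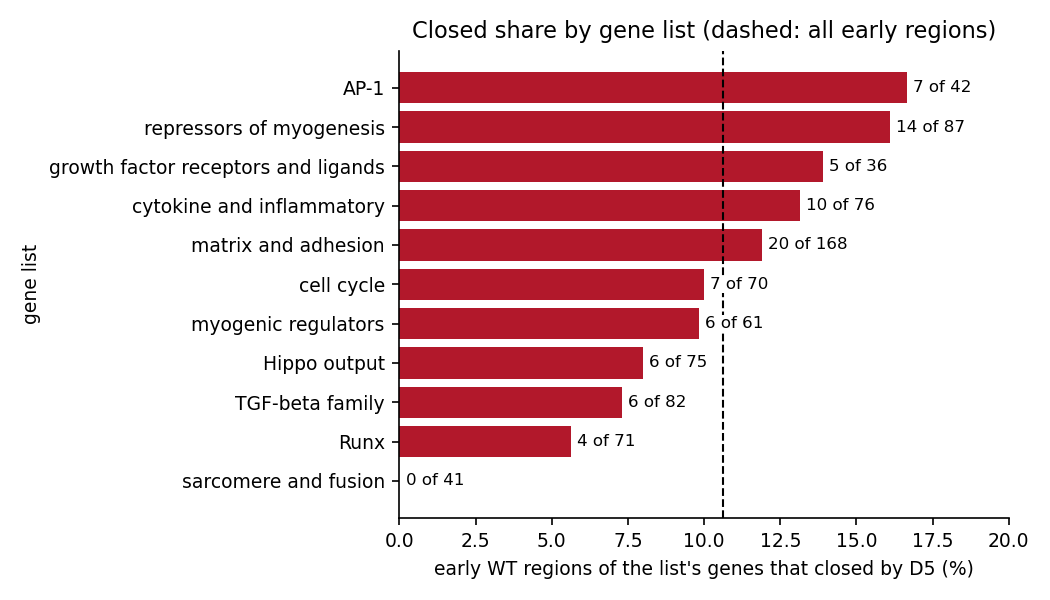
Percent of early WT regions that closed by D5 (x axis) for the genes of 11 lists (y axis), with the number closed of the number of early regions beside each bar. The dashed line is the 10.6% over all early regions; AP-1 genes had 16.7% and sarcomere and fusion genes 0 of 41.

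Several closed regions inside these genes show the values behind the counts. Inside Met (chr6:17515919-17516517) the fold was 5.01 and 5.57 at D0, 8.24 and 8.11 in D1 CTL, and 5.65 and 7.13 in D1 MR. Both D1 CTL values exceeded the other 4, and the rank was lower in D1 MR than in D1 CTL (difference in normal score -0.97, SE 0.27, limma adjusted p = 0.035). At Fosl1 (chr19:5448547-5449024), which encodes the AP-1 subunit Fra-1, the fold was 6.75 and 5.37, then 5.39 and 4.44, then 5.51 and 6.01, with overlapping folds. Its within-list percentiles were 80.5 and 54.2 at D0, 32.7 and 31.7 in D1 CTL, and 27.7 and 42.2 in D1 MR. The rank in D1 CTL did not pass the test against D0 (limma adjusted p = 0.072). That region was called in all 6 early KO lists and in both D5 lists of KO line 2, with a fold of 4.86 in CTL and 5.05 in MR. Within 1 kb of Snai1 (chr2:167543315-167544173) the fold was low throughout, at 3.43 to 4.11 in the 6 lists. It was 3.67 to 5.72 in the early KO lists and 4.15 and 3.90 in KO line 2 at D5. In the fit of KO against WT, whose limits are given below, the rank was higher in KO (difference in normal score 0.83, SE 0.22, limma adjusted p = 0.021). At Tnfaip3, which restrains NF-kB signalling, the closed region was also called in every KO list used, with 5.11 and 4.97 at D5.

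At D1, closed regions changed about as often as other regions between D0 and D1 CTL. The comparison ranked fold enrichment within each list over all 31947 early regions, turned ranks into normal scores (1 unit is 1 SD over regions) and tested them by limma at an adjusted p of 0.05. Of the 3397 closed regions 224 (6.59%) passed in either direction, against a percent called of 7.37% over all early regions. In D1 CTL 134 (3.94%) were higher, against 4.37%, and 90 (2.65%) were lower, against 3.0%. These shares are near the background, and the median score difference of closed regions was 0.05, against -0.02 over all. Fewer closed regions passed whichever of the 6 libraries was left out. Their median score difference was then between -0.05 and 0.14. Without WT D1 CTL replicate 1, lower calls outnumbered higher ones among closed regions.

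Individual closed regions nevertheless moved far. Inside Hmga2, which encodes an architectural chromatin protein of proliferating cells, the fold was 3.80 and 3.61 at D0, 10.4 and 8.89 in D1 CTL, and 7.81 and 7.68 in D1 MR. The groups did not overlap, and the score was 2.09 higher in D1 CTL than at D0 (SE 0.24, limma adjusted p = 0.00041). Regions 89.0 kb from Nt5e, 18 kb from Pmvk and 171 kb from Gk2 rose by 2.71, 2.14 and 1.97 (limma adjusted p of 0.00044 to 0.0017). Near Gk2 (chr5:97628483-97628585) the fold was 4.24 and 3.74, then 11.8 and 8.68, then 4.94 and 4.25, so that both D1 CTL values lay above the other 4; this region was in none of the 8 KO lists used. In the other direction, a 77-bp region 2.83 kb from Rrp12, a ribosome assembly gene, had a fold of 5.34 and 5.15 at D0, 3.08 and 3.11 in D1 CTL, and 6.54 and 6.61 in D1 MR. From D0 to D1 CTL its score fell by 2.47 (SE 0.35, limma adjusted p = 0.0012). Regions near Piwil2 and Tmem131 and inside Arfgap3 were lower as well, by scores of -1.73 to -2.28.

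Under methionine restriction at D1, closed regions were more often weaker than stronger. Of the 3397, 296 (8.71%) were lower in D1 MR than in D1 CTL, against a percent called of 6.09% over all early regions, and 89 (2.62%) were higher, against 5.99%. The median score difference was -0.22 for closed regions, 0.02 for kept regions and 0.15 for regions kept under restriction only, against 0.01 over all. Compared within tiers 1 and 2, 3 and 4, and 5 and 6, the closed regions had the lowest and the regions kept under restriction only the highest median each time. In tiers 3 and 4, for example, the medians were -0.26 for closed, -0.02 for kept and 0.20 for regions kept under restriction only, and 10.9%, 4.99% and 3.11% were lower. This contrast and that of D1 CTL with D0 share the D1 CTL lists.

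The number of closed regions called in this contrast rested on single libraries. Among closed regions, lower calls outnumbered higher ones by least without WT D1 CTL replicate 1. The median score difference of closed regions was then -0.18, against 0.004 over all early regions. Without WT D1 CTL replicate 2 it was -0.31, against 0.001 over all. Without WT D1 MR replicate 1 it was -0.25, against 0.02, and without WT D1 MR replicate 2 it was -0.20, against 0.005. The median score difference of closed regions was between -0.31 and -0.18 whichever of the 6 libraries was left out.

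**Figure D4:**
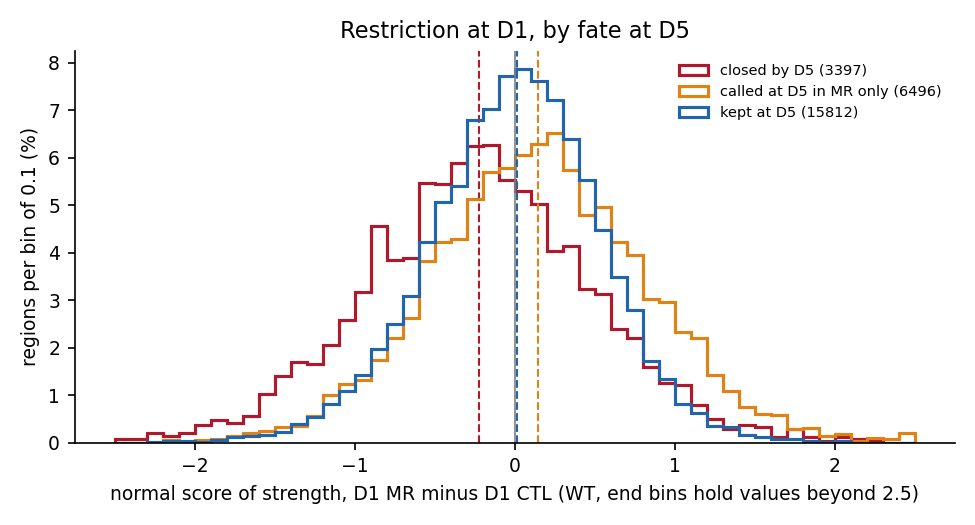
Distribution of the difference in normal score of strength between D1 MR and D1 CTL in WT (x axis) as percent of regions per bin (y axis), for closed regions, regions kept under restriction only and kept regions, with dashed lines at the medians of -0.22, 0.15 and 0.02. The histogram of closed regions lies to the left of the others.

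Among the closed regions with the smallest p for a lower rank, one 7.31 kb from Ywhaq, a 14-3-3 protein gene, had a fold of 6.35 and 7.27 at D0, 9.87 and 7.78 in D1 CTL, and 4.66 and 4.15 in D1 MR. Its score difference was -2.15 (SE 0.24, limma adjusted p = 0.00038). A region 75.2 kb from Papss1, whose product makes the sulfate donor PAPS, had 8.94 and 8.85, then 9.16 and 7.26, then 4.60 and 4.41. In both cases the 2 MR values lay below the other 4. The regions near Gk2 and Scd2 (a fatty acid desaturase gene) and inside Creb5 were lower by scores of -2.36, -2.30 and -1.90. Higher ranks in MR were found 329 kb from Dsc3, near Rrp12 and Piwil2, and inside Arfgap3 and Car10, with score differences of 1.77 to 2.28 (limma adjusted p of 0.0026 to 0.0046). Near Dsc3 the fold was 4.10 and 5.53 at D0, 3.84 and 3.37 in D1 CTL, and 10.3 and 7.33 in D1 MR.

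Calls in the KO lists did not choose the closed regions. In KO line 1, 70.2% of closed regions were called at D0, 69.1% in D1 CTL and 50.4% in D1 MR. In KO line 2 the shares were 38.7%, 64.9% and 31.7%. Over the 6 lists the mean was 54.1% ± 16.4 (SD, n = 6 lists from 2 lines). Kept regions were called in 85.8% to 98.3% and regions kept under restriction only in 60.6% to 89.9% of cases. Over all early regions the share was 70.7% (line 2 at D0) to 91.9% (line 1 in D1 CTL). Closed regions were the class called least often in each of the 6 lists. Of the closed regions 569 (16.8%) were called in all 6 early KO lists, against 82.3% of kept regions and 19629 of the 31947 early regions. In none of these lists were 455 closed regions (13.4%), against 0.64% of kept regions and 3.48% of regions kept under restriction only. The early KO lists differed in length, from 30629 peaks (line 2 at D0) to 63530 (line 1 at D0). From the longest to the shortest list the shares were 70.2%, 69.1%, 50.4%, 64.9%, 31.7% and 38.7%. The longest lists thus had the highest shares and the shortest the lowest, though not in exact order. The part of list length in these shares was not tested.

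In each KO line the MR list of D1 held fewer closed regions than the CTL list. In line 1, 699 closed regions were called in D1 CTL and not in D1 MR, and 65 the other way round. In line 2 the numbers were 1187 and 62. Among kept regions they were 302 and 20 in line 1, and 947 and 91 in line 2. The MR lists of D1 were also shorter than the CTL lists, with 48460 against 61045 peaks in line 1 and 35201 against 46664 in line 2. The lines differed from each other, since 218 closed regions were called in all 3 early lists of line 1 and none of line 2, and 37 in the reverse pattern.

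**Figure D5:**
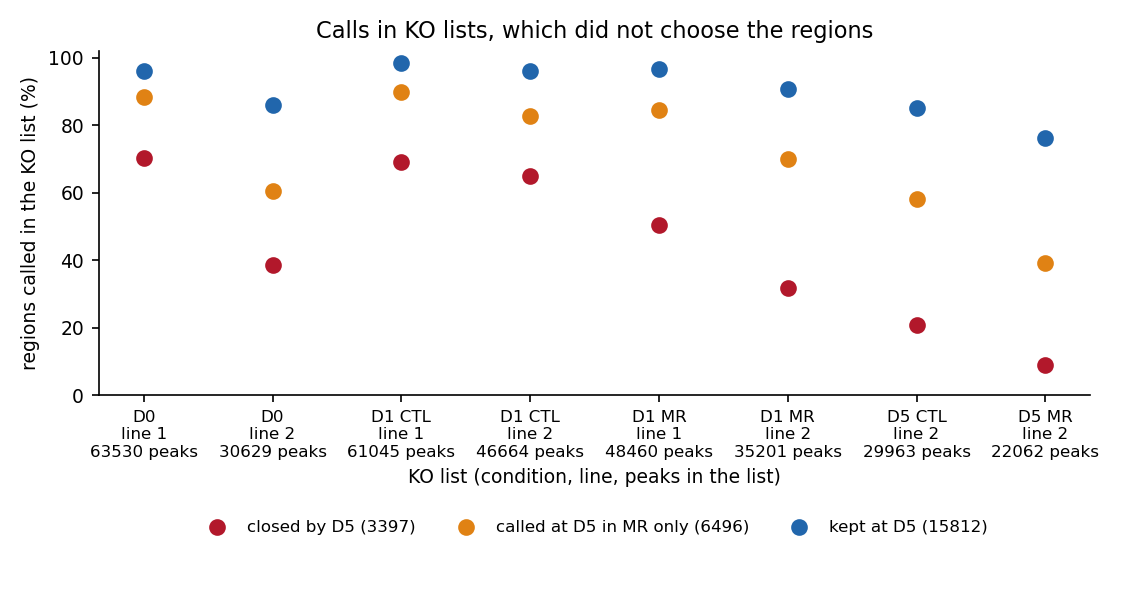
Percent of closed regions, regions kept under restriction only and kept regions (y axis) that were called in each of 8 KO lists (x axis, with the number of peaks in the list). Closed regions were called least often in each list, from 70.2% in line 1 at D0 to 8.86% in line 2 at D5 in MR.

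The 455 closed regions with no early KO call were short, with a median length of 151 bp and a median strength of 18.8, against 267 bp and 27.3 for the 569 called in all 6. The strongest of them was the region inside Zc3h13 (chr14:75328121-75328366). Its fold was 7.38 and 8.23 at D0, 9.46 and 6.77 in D1 CTL and 11.8 and 10.8 in D1 MR, and none of the 8 KO lists used held a peak there. Regions inside Ulk4 and Garnl3, 17 kb from Sema3c (a semaphorin gene) and inside Nrap (a gene of a muscle actin-binding protein) came next, with mean percentiles of 63.0 to 70.9. The 1 closed region inside a myogenic regulator, in Eya2 (chr2:165653493-165653844), was also without a KO call, with a WT fold of 3.24 to 5.16.

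At D5 only KO line 2 could be read. Its CTL list held 705 closed regions (20.8%) and its MR list 301 (8.86%), and 236 were in both, while 2627 (77.3%) were in neither. Of kept regions 85.1% and 76.2% were called in these 2 lists, and of regions kept under restriction only 58.0% and 39.3%. Over all early regions the shares were 66.3% and 53.7%. Within tiers of early WT strength, 17.9% of closed and 54.3% of kept regions were called in CTL in tier 1, and 23.1% and 75.2% in tier 4. The tiers match neither region length nor strength in KO line 2, and the part of these in the gap was not tested. Of the 791 closed regions called in all 3 early lists of line 2, 58.2% were called at D5 in CTL, 29.3% in MR, and 37.2% in neither. Of the kept regions called in all 3 of those lists, 3.79% were called in neither D5 list. Line 2 thus lost calls at closed regions more often than at kept ones, from a single library per medium. Peaks at 1 of 6 differentiated muscle markers in these libraries stand beside that result, and their part in it was not tested.

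The closed regions with the highest WT strength among the 236 called in both D5 lists of line 2 lay near Lifr, Ier5 and Ppp1r32 and inside Bach1 and Mapre2. Near Lifr, the gene of the receptor for leukaemia inhibitory factor, the WT fold was 8.49 and 9.60 at D0, 10.3 and 6.93 in D1 CTL, and 6.48 and 6.99 in D1 MR. The D5 lists of line 2 gave it a fold of 4.85 (CTL) and 4.15 (MR). Near Ier5, an immediate early gene, the D5 values were 8.11 and 5.98, and near Ppp1r32 6.40 and 6.85. Inside Bach1, which encodes a repressor of the haem and oxidative stress response, they were 3.78 and 3.55.

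Strength was compared between KO and WT at D0 and D1 over the 19629 regions called in all 12 early lists, with the condition as a covariate. The fit treated the 6 early KO lists as independent, although they came from 2 lines. Deviations of lists of the same line correlated at 0.40 to 0.54, so the SE and p-values of this contrast may be too small. Only 569 closed regions (16.8%) could enter, those also called in all 6 early KO lists, so the counts do not describe all closed regions. Regions weak in WT enter only where KO also gave a call, so this filter itself can tilt their counts towards higher in KO. The part of the filter in the counts was not tested. Of the 569, 92 (16.2%) were higher in KO, against a percent called of 5.89% over all regions tested, and 11 (1.93%) were lower, against 6.19%. The median difference was 0.29. Weak regions of each class shared this shift. In tiers 1 and 2 the median was 0.57 for closed regions, 0.46 for regions kept under restriction only and 0.47 for kept regions, and in tiers 5 and 6 it was -0.06 for closed and 0.11 for kept regions. Without KO line 1 the counts were 162 higher and 11 lower, against 2446 and 2714 of all 19629 regions. Without KO line 2 they were 106 and 56, against 2336 and 2554. Without WT replicate 1 they were 21 and 0, against 211 and 139. Without WT replicate 2 they were 14 and 0, against 187 and 154. In either direction 30.4%, 28.5%, 3.69% and 2.46% of the closed regions passed, in the same order. Over all regions tested these shares were 26.3%, 24.9%, 1.78% and 1.74%.

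The 5 closed regions with the smallest p for a higher rank in KO all lay over 50 kb from a gene. A region 106 kb from Cenpw, a centromere protein gene, had a WT fold of 3.20 to 5.45 and a KO fold of 8.71 to 15.4 in the 6 early lists, with no overlap. The score difference was 2.88 (SE 0.28, limma adjusted p = 2.5e-05). It remained called in line 2 at D5, with 8.53 in CTL and 6.11 in MR. A region 74.0 kb from Prkcq, a protein kinase C gene, had 3.49 to 4.86 in WT and 7.89 to 14.2 in KO (score difference 2.63). Regions 65.0 kb from Tacr3, 960 kb from Nsun3 and 269 kb from Insig2 were higher by 2.35, 2.60 and 1.56, and all 5 of these regions were called in both D5 lists of line 2. Among the 11 lower ones, a region 24.6 kb from Eya2, a transcriptional coactivator in the muscle lineage, had 4.28 to 6.40 in WT and 3.29 to 4.44 in KO (score difference -1.22, SE 0.25, limma adjusted p = 0.0043). The region at the start of Lrrc17 was lower too, by a score of -0.90 (limma adjusted p = 0.018), with 4.57 to 9.48 in KO and 6.51 to 15.3 in WT, so the ranges overlapped across conditions. Regions near Uncx and Map10 and one inside Grip1 were lower by scores of -1.12, -1.10 and -1.42.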

How the data were processed

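Chromatin accessibility was measured by ATAC-seq in 20 libraries. Per the labels' protocols, cells were lysed and tagmented with a commercial kit and the DNA was amplified with 10 PCR cycles. The authors deposited 1 broadPeak list per library, on GRCm38 per the submitters' processing notes; the aligner, read shift, duplicate handling and peak caller are not given in the sources used here. For every peak the deposited files hold a score, a fold enrichment (ratio) and its −log10 p-value and q-value. The deposited score equals 10 times the −log10 q-value without decimals in 787612 of 787806 peaks. Fold enrichment is the authors' value. Tests and strength used its rank within a list. Folds set side by side from different lists were not scaled to one another, so their order can differ from that of the ranks.

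Members and gene lists were chosen with earlier results of these data known. Read totals are unknown. The background pileup was solved from paired fold and p-values, assuming a fold of (pileup + 1)/(background + 1) and a Poisson p-value. Ranks were tested with limma 3.58.1 (R 4.3.3, trend) with Benjamini-Hochberg adjustment over all regions fitted. A region's fold is that of its strongest overlapping peak. Tested on simulated data, the WT fit of D1 CTL against D0, over 31947 regions, called 54.0% of 200 regions shifted by 1 score unit, 99.5% of those shifted by 2, and 0 when none was shifted. The KO fit, over 19629 regions, called 38.0% and 99.5%. With shifts of 1 and 2, the unshifted regions called were 3 and 13 in the WT fit and 3 and 10 in the KO fit. Simulated noise was independent between lists, which real lists of the same KO line were not, so these rates may not hold for the KO fit. Nothing in the labels says that the libraries came from separate cultures, so p-values measure the spread between these libraries. The KO line was the same for lists of 1 number, and deviations of same-line lists correlated at 0.40 to 0.54. For WT replicate numbers the correlations were -0.03 to 0.11, so those numbers were not taken to pair libraries.

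Genes came from RefSeq tables of GRCm38.p6 with 21627 protein-coding genes, of which 79.9% had a listed start (none on chromosome 18). Named were the 10 strongest closed regions, the 5 strongest without an early KO call, the 5 strongest in both D5 lists of KO line 2, the 5 smallest p-values in each direction of each contrast, the 5 genes and 3 runs with most closed regions, and up to 3 regions within 1 kb of or inside genes of each list; others are said to be picked after their values were seen, and a few regions under this rule are not reported here. Alternatives were other q-value, overlap, merging and list-length settings, ranking by −log10 q-value, a replicate block, and leaving out each library.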

Additional observations from a re-analysis of the deposited data

How the results depend on the processing

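The number of closed regions was 3397 and lay between 2593 and 3417 with peaks of a −log10 q-value of at least 2 or 5, peaks covering 50% of a region or merging within 100 bp. With the 20000 strongest peaks of each list it was 501. Leaving out 1 WT list of the rule gave 3444 to 4564. The mean share of closed regions called in the 6 early KO lists was 54.1% and lay between 48.4% and 57.4% in all 16 alternatives. It was 50.6% to 57.4% when 1 list was left out. Leaving the D5 lists of KO line 1 out of the merge, an alternative chosen after seeing the data, left both values as they were.

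Closed regions that passed the test numbered 224 for D1 CTL against D0, with 63 to 162 when a library was left out. They numbered 385 for D1 MR against D1 CTL, with 66 to 475, and 103 for KO against WT, with 14 to 173 when a line or a WT replicate was left out and 53 with 50% cover. Over all regions, leaving out 1 library moved the number called from 2353 to between 851 and 1822, from 3862 to between 414 and 4654, and from 2372 to between 341 and 5160 in the same order. With 50% cover fewer regions entered, and 1294, 2457 and 648 of all regions passed. With a replicate block 281, 450 and 104 closed regions passed, which is within 1.5 times of each count. In the KO fit that block joined WT replicates to KO lines of the same number, which the labels do not pair. Fewer libraries leave fewer residual degrees of freedom; the cause of the differences between single libraries was not tested. Read totals are unknown and the D5 state of KO rests on line 2, so a region without a call may have fallen below the detection limit of its list.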

Other observations

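Replication-dependent histone genes were looked at after the values were seen. Of 63 such genes, 4 (H2ac10, H2ac6, H4c2 and H4c9) had a closed region within 1 kb, while 11 had a kept region and 14 a region kept under restriction only, among them H1f1 and H4c6. H2ac10 and H2ac6 had both a closed and a kept region. Within 1 kb of an end of any of the 21627 protein-coding genes lay 404 closed regions, 6304 kept regions and 1078 kept under restriction only. The share of all genes with a closed region within 1 kb was not counted, so the 4 of 63 cannot be called few or many.

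By chromosome, the share of early regions that closed was 8.72% on chromosome 11 and 12.8% on chromosome 18, the lowest and the highest of the 20 chromosomes present. On chromosome 12, KO line 1 called 53.5% of closed regions at D0 and 51.6% in D1 CTL, against 70.2% and 69.1% over all chromosomes, and 91.4% and 94.6% of kept regions, against 96.1% and 98.3%. On the same chromosome KO line 2 called 32.9% and 58.7% of closed regions, against 38.7% and 64.9% overall. Other chromosomes departed further in line 2 at D0, with 24.4% on chromosome 17 and 56.5% on chromosome 3. Closed regions without any early KO call made up 23.2% of those on chromosome 12 and 13.4% overall. These values are given as measured, without a test.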
